A study of Mus musculus with 6 samples.

Results

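Stefins are small cytosolic proteins of the cystatin superfamily that bind papain-like cysteine proteases, chiefly the cathepsins of the lysosome, and block their active site. Humans have a single stefin A gene, whereas in the mouse it has multiplied into a run of close copies on chromosome 16, several of which are known as genes of granulocytes and of the epidermis. Cystatin B, also called stefin B, is made by nearly every cell type and is encoded by the separate gene Cstb on chromosome 10. The 7 genes described here are the stefin A copies Stfa1, Stfa2, Stfa2l1, Stfa3, BC100530 and Gm5483, together with Cstb. They were chosen by name from 38887 Ensembl identifiers, with their counts in the 3 groups already known, so every value of theirs below is a description that carries no test. All 7 were among the 12259 genes with enough counts to be tested.

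RNA was sequenced from Ly6G+ cells, which are neutrophils, taken out of bone marrow with an anti-Ly6G antibody and beads. The mice were of the C57BL/6 strain, as described for the study's animals. The naive group received no tumor, and the week 1 and week 3 groups were taken 1 and 3 weeks after LL2 cells, a luciferase-expressing Lewis lung carcinoma line, were injected into the blood to grow in the lung. Each group held 2 libraries, labelled as replicate mice, so a p-value measures only the spread between these 6 libraries. The labels name no transgene, the tumor comes from a single transplanted line, and neither age nor sex was given per library. Library totals ran from 11994158 to 14127919 counts, at which 3 counts equal between 0.212 and 0.25 CPM, counts relative to a common library size, before scaling. CPM values of genes use totals scaled between libraries by the TMM method, and errors after ± are the SD of 2 libraries. The neutrophil genes fixed as a check of the label were all detected, and their summed level ran from 240376 to 323684 CPM, most of it from S100a8 and S100a9. Ly6g itself, which encodes the antigen used for the selection, was counted at only 0.491 to 2.14 CPM.

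The 6 stefin A genes lie within 299 kb of one another, at chr16:36156811-36455392 of GRCm38. From the low to the high coordinate, Stfa2l1, Gm5483 and Stfa1 lie on the plus strand, and BC100530, Stfa2 and Stfa3 follow on the minus strand. Their annotated coding sequences span 97 to 103 codons. A stretch of 60 coding bases shows how alike the copies are and where they differ, read 5′ to 3′ on the coding strand from the GENCODE transcripts. Capitals mark the 15 bases for the conserved glutamine-X-valine-X-glycine loop, the part of a cystatin that enters the protease's active site.
Stfa1: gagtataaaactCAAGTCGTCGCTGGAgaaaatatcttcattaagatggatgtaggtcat
BC100530: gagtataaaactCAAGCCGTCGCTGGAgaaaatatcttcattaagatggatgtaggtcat
Stfa2: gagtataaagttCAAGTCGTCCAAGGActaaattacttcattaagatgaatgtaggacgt
Stfa2l1: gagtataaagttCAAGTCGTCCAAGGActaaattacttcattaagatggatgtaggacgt
Stfa3: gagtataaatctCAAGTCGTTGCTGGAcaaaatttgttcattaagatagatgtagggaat
Gm5483: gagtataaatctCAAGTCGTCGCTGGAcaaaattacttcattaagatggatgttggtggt
Cstb: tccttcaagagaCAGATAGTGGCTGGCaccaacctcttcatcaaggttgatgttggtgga

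Over the whole coding sequence, Stfa1 and BC100530 differed at 6 of 294 aligned positions, an identity of 98%. Stfa2 and Stfa2l1 differed at 11 of 312 positions, an identity of 96.5%. Gm5483 had its nearest copy outside the 7 genes, in 2010005H15Rik, with 9 differing positions of 294 and an identity of 96.9%. Stfa3 had no such partner and reached at most 81.7% with the other 5, and Cstb lay between 52.2% and 61% of the 6 copies.

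These identities bear on the counts, because a read that fits several copies has to be divided among them by estimation. Taking every run of 50 bases in the annotated transcript, near the shorter of the read lengths given for these libraries, 33.5% of those of BC100530 also occurred in another gene, against 26.9% for Stfa1. The same share was 24.6% for Stfa2l1 and 15.9% for Stfa2. For Gm5483 it was 35.6%, all of it shared with 2010005H15Rik. With runs of 75 bases, the longer read length given, the shares fell to 22.4% for BC100530, 10.7% for Stfa1, 7.83% for Stfa2l1, 5.79% for Stfa2 and 23.5% for Gm5483. Stfa3 and Cstb shared no run of either length. Only exact runs were compared, so whether reads that fit with mismatches were divided is not known. Most of each transcript was therefore distinct even in the closest copies, while the split within the pairs Stfa1 and BC100530, and Stfa2 and Stfa2l1, is less certain than the sum of each pair. BC100530 also overlaps an annotated antisense gene, Gm15845, and the sources used here do not say whether counting used the strand.

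In neutrophils of week 3 LL2 mice the 6 stefin A genes together stood at 8.36 times the naive level, whereas at week 1 they stood at 1.33 times. The summed counts gave 415 and 374 CPM in the naive libraries, 611 and 438 CPM at week 1, and 3879 and 2713 CPM at week 3. Both week 3 libraries lay far above the other 4, and both week 1 libraries lay above both naive ones, although the lower week 1 library was close to the higher naive one. The log2 difference was 3.06 ± 0.19 (SE of the fit, here and after each log2 value) between week 3 and naive, 2.65 ± 0.19 between week 3 and week 1, and 0.41 ± 0.18 between week 1 and naive. The week 1 difference rested largely on 1 library, since it fell to 0.15 without replicate 1 of week 1. In bulk RNA of this kind, a larger share of cells that hold stefin A RNA and more of that RNA in each cell cannot be told apart.

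**Figure D1:**
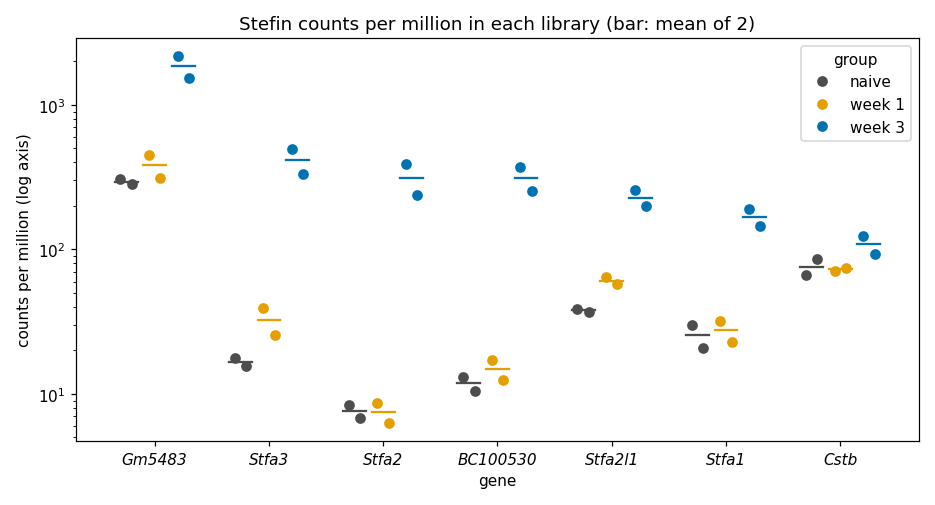
CPM of the 7 stefin genes on a log axis, with 1 point for each of the 6 libraries and a bar at the mean of the 2 libraries of a group. In every stefin A gene both week 3 points lie above the 4 others, with the highest in Gm5483 at 1542 and 2174 CPM, and the Cstb points lie between 66.1 and 124 CPM.

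Gm5483 was the most abundant of the 7 in every library. It was counted at 306 and 283 CPM in naive mice, 449.6 and 314 CPM at week 1, and 2174 and 1542 CPM at week 3. The week 1 libraries lay above the naive ones by a margin smaller than the gap between the week 1 libraries themselves, and the week 3 libraries lay well above both. The log2 difference from naive was 0.37 ± 0.18 at week 1, falling to 0.09 without replicate 1 of week 1, and 2.66 ± 0.19 at week 3, a fold of 6.3. Since Gm5483 had at least 66.3 times the counts of 2010005H15Rik in every library, adding that copy moved its week 3 difference only to 2.67.

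Stfa3, the copy that shared no run of read length with another gene, stood furthest above naive at week 1. Its libraries stood at 17.7 and 15.6 CPM in naive mice, 39.4 and 25.7 CPM at week 1, and 498 and 332 CPM at week 3. The 3 groups did not overlap, in the order naive, week 1, week 3. The log2 difference from naive was 0.97 ± 0.22 at week 1 and 4.64 ± 0.23 at week 3, which are 1.96-fold and 24.9-fold. Without replicate 1 of week 1 the first of these was 0.62.

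Stfa2, as counted, had the largest log2 difference of the 7 at week 3, although with near-identical copies summed that place went to Stfa3. Its naive libraries were at 8.39 and 6.79 CPM, its week 1 libraries at 8.61 and 6.34 CPM, and its week 3 libraries at 389 and 238 CPM. Naive and week 1 overlapped fully, and the log2 difference at week 3 was 5.37 ± 0.25 against naive and 5.38 ± 0.24 against week 1, a fold of 41.2 over naive. Summed with Stfa2l1 the difference from naive was 3.57, below the 4.64 of Stfa3.

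Stfa2l1, the near-identical partner of Stfa2 at the far end of the locus, followed another course. It was counted at 38.9 and 37.1 CPM in naive mice, 64.2 and 57.3 CPM at week 1, and 256 and 200.4 CPM at week 3. The 3 groups did not overlap. The log2 difference from naive was 0.68 ± 0.14 at week 1 and 2.59 ± 0.14 at week 3, a fold of 6.01. Stfa2l1 had 4.63 and 5.46 counts for each count of Stfa2 in naive libraries, 7.46 and 9.04 at week 1, and 0.659 and 0.841 at week 3, so that the order of the pair was turned around at week 3. Summed, the pair differed from naive by 0.58 ± 0.17 at week 1 and 3.57 ± 0.18 at week 3.

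BC100530 and Stfa1 formed a like pair. BC100530 stood at 13.2 and 10.5 CPM in naive mice, 17.1 and 12.5 CPM at week 1, and 370.1 and 255 CPM at week 3. Its naive and week 1 libraries overlapped, with a log2 difference of 0.32 ± 0.22, and week 3 lay 4.72 ± 0.22 above naive, a fold of 26.3. Stfa1 stood at 30.2 and 20.7 CPM in naive mice, 32 and 23 CPM at week 1, and 191 and 145 CPM at week 3. Its naive and week 1 libraries also overlapped, at 0.11 ± 0.20, and week 3 lay 2.72 ± 0.20 above naive, a fold of 6.6. Stfa1 had 2.28 and 1.98 counts per count of BC100530 in naive libraries and 0.516 and 0.569 at week 3. Summed with the third close copy, BC117090, the pair differed from naive by 0.18 ± 0.20 at week 1 and 3.69 ± 0.21 at week 3.

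Cstb differed least. It was counted at 66.1 and 86.1 CPM in naive mice, 71.4 and 74.7 CPM at week 1, and 124 and 93.4 CPM at week 3. The week 1 libraries fell between the naive ones, at a log2 difference of -0.06 ± 0.16, and both week 3 libraries lay above the other 4, the lower of them by a small margin. The week 3 difference was 0.51 ± 0.16 from naive and 0.57 ± 0.16 from week 1, which are 1.43-fold and 1.49-fold. The first of these rested on few libraries: it was 0.30 without replicate 1 of naive, 0.72 without replicate 2 of naive, 0.31 without replicate 1 of week 3 and 0.71 without replicate 2 of week 3. The second was 0.37 without replicate 1 of week 3. Scaling by library totals alone gave 0.37 for both.

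**Figure D2:**
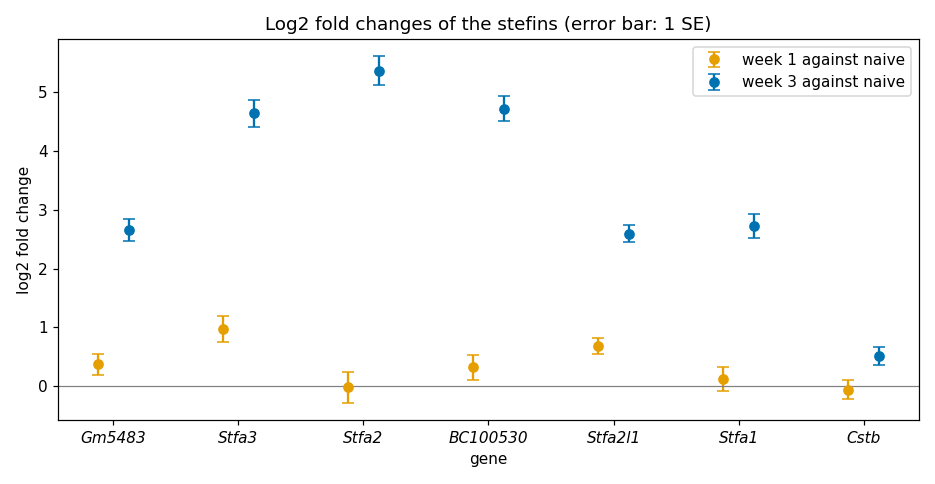
Log2 fold change of each stefin gene at week 1 and at week 3 against naive, with bars of 1 SE from the fit. At week 3 the genes, as counted, lie at 2 levels, Stfa2, BC100530 and Stfa3 between 4.64 and 5.37 and Gm5483, Stfa1 and Stfa2l1 between 2.59 and 2.72, with Cstb at 0.51. The levels depend on how reads were divided between near-identical copies. Summed (not drawn), Stfa2 with Stfa2l1 gave 3.57 and Stfa1 with BC100530 and BC117090 gave 3.69.

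Of the 7 genes, 2 (Stfa3 and Stfa2l1) passed an adjusted p of 0.05 with edgeR in the higher direction at week 1 against naive, where 4.23% of all tested genes did. DESeq2 gave 0.95 ± 0.35 for Stfa3 and 0.66 ± 0.16 for Stfa2l1. In the study's own DESeq2 comparison of week 1 with control, Stfa2l1 reached the FDR threshold and Stfa3 did not. Among its top genes at week 3 against control, the study listed Stfa1, Stfa2, Stfa2l1, Stfa3 and BC100530 as higher. It gave BC100530 a slightly larger fold than Stfa2, the reverse of the order here. In the present counts, 3 of the 7 had both week 1 libraries above both naive ones, where 27.2% of all tested genes had. At week 3 all 7 passed in the higher direction against naive and against week 1, where 12.0% and 12.9% of all tested genes did, and all 7 had both week 3 libraries above those of the other group, as had 32.1% of tested genes against naive and 31.5% against week 1. The genes were chosen on these same contrasts, so nothing is read from these counts. The median log2 difference of the 7 genes was 0.32, 2.72 and 2.61 for week 1 against naive, week 3 against naive and week 3 against week 1, beside 0.01, 0.03 and -0.02 over all tested genes.

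Levels of different genes can be compared only per length, here as CPM per kb of the annotated transcript. The 2 libraries of a group differed in the level of all stefin A genes together, so the order is given within each library. In naive mice Gm5483 led with 712 ± 39.8 CPM per kb, followed by Cstb with 126 ± 23.5 and Stfa2l1 with 90.6 ± 2.99. Stfa1 with 41.2 ± 10.8 and Stfa3 with 40.4 ± 3.73 CPM per kb changed places between the 2 libraries and did not differ beyond their spread. BC100530 with 19.1 ± 3.13 stood above Stfa2 with 16.1 ± 2.39 CPM per kb in both libraries. At week 1 Stfa2l1, at 145 ± 11.7 CPM per kb, stood above Cstb at 121 ± 3.96. Below them came Stfa3 at 79 ± 23.7, Stfa1 at 44.6 ± 10.4, and BC100530 and Stfa2 at 23.9 ± 5.29 and 15.9 ± 3.41 CPM per kb, in the same order in both libraries. At week 3 Gm5483 stood at 4488 ± 1078 CPM per kb and Stfa3 at 1007 ± 286. Next came Stfa2 at 666 ± 226, Stfa2l1 at 545 ± 94.5 and BC100530 at 505 ± 132 CPM per kb. Both week 3 libraries gave the same order, with 826 and 506 CPM per kb for Stfa2, 612 and 478 for Stfa2l1, and 598 and 412 for BC100530, although the ranges of these 3 genes overlapped between libraries. Stfa1 followed at 272 ± 52.8, and Cstb, second in naive mice, came last at 179.9 ± 35.3 CPM per kb.

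The make-up of the stefin A counts changed with week 3. Gm5483 held 74.8% ± 1.32 of the counts of the 6 genes in naive mice and 72.6% ± 1.43 at week 1, but 56.4% ± 0.576 at week 3. Stfa2 went from 1.92% ± 0.144 in naive mice to 9.41% ± 0.882 at week 3, Stfa3 from 4.22% ± 0.0792 to 12.5% ± 0.438, and BC100530 from 2.99% ± 0.27 to 9.47% ± 0.101. Stfa2l1 went the other way, from 9.64% ± 0.392 to 7% ± 0.549, and Stfa1 from 6.4% ± 1.22 to 5.14% ± 0.296. These shares compare counts of transcripts of unequal length, so only their change between groups is informative. For Stfa2 and Stfa2l1, and for Stfa1 and BC100530, that change also depends on how reads were divided between the copies. Summed, Stfa2 with Stfa2l1 differed from naive by 3.57 in log2 at week 3, beside 3.06 for the 6 genes together. Stfa1 with BC100530 and BC117090 differed by 3.69. Although the week 3 libraries differed in stefin A level, at 3879 and 2713 CPM, their make-up was nearly the same, with Gm5483 at 56% and 56.9%.

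**Figure D3:**
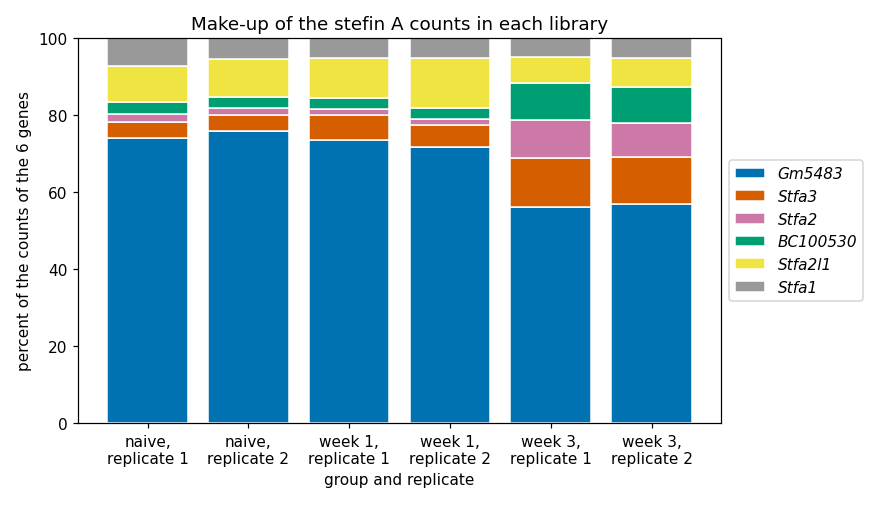
Share of each gene in the summed counts of the 6 stefin A genes, in percent, as stacked bars for the 6 libraries. The part of Gm5483 falls from between 71.6% and 75.8% in the naive and week 1 libraries to 56% and 56.9% at week 3. Those of Stfa3, Stfa2 and BC100530 widen. The parts of Stfa2 and BC100530 depend on how reads were divided between near-identical copies.

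Other genes of the locus were not uniformly high at week 3. 2010005H15Rik, the close copy of Gm5483, had 8 and 5 counts in naive mice, 14 and 31 at week 1, and 423 and 175 at week 3, with a log2 difference of 5.44 ± 0.53 at week 3 (adjusted p = 1.44e-05). BC117090, the close copy of BC100530, had 7 and 2 counts in naive mice, 2 and 5 at week 1, and 61 and 57 at week 3. Its week 3 difference was 3.62 ± 0.56. It passed the filter on low counts only through its week 3 libraries, so this difference is a description. 2010005H15Rik and BC117090 can both take reads of their copies among the 6 genes. Gm5416, which shared no run of 50 bases with any other gene, had 49 and 56 counts in naive mice, 68 and 43 at week 1, and 62 and 50 at week 3. Its week 3 difference was 0.03 ± 0.30 (adjusted p = 0.956), and its libraries overlapped in all 3 groups. Csta1 had at most 2 counts in naive and week 1 libraries and 8 and 7 at week 3, too few to be tested. As counted, the members on the plus strand lay at 2.59 to 2.72 in log2 difference and those on the minus strand at 4.64 to 5.37. However, 2010005H15Rik and Gm5416, both on the plus strand, lay at 5.44 and 0.03, and BC117090, on the minus strand, at 3.62. The near-identical pairs Stfa2 and Stfa2l1, and Stfa1 and BC100530, each have 1 copy on either strand. Summed, the first pair gave 3.57 and the second, with BC117090, 3.69. The gap between strands within a pair is less certain than these sums, since it depends on how reads were divided.

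**Figure D4:**
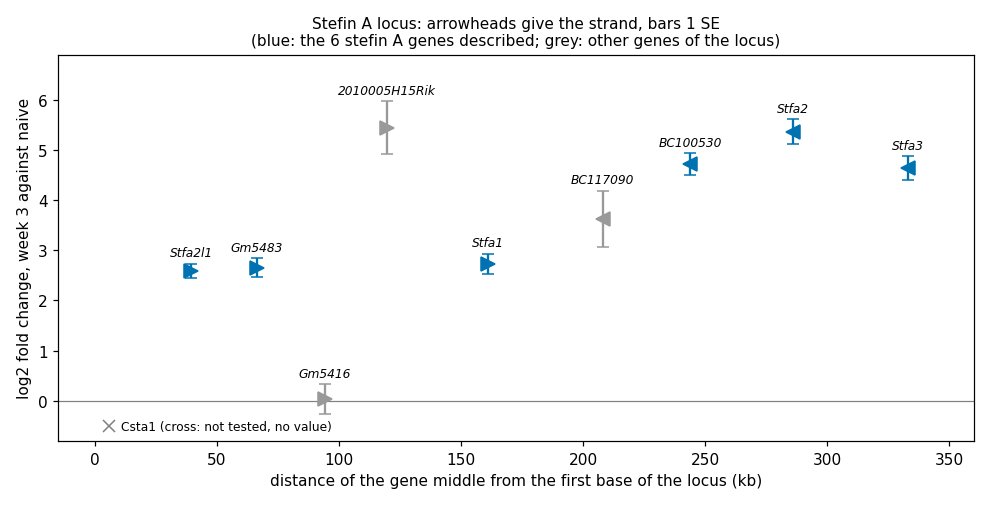
Log2 fold change at week 3 against naive, with bars of 1 SE, for the genes of the stefin A locus placed by their distance in kb from its first base. Arrowheads give the strand. Gm5416 lies at 0.03 among neighbours between 2.59 and 5.44.

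Within 500 kb of the 6 genes on either side, 14 further genes were tested, and 5 of them were higher at week 3 than in naive mice with an adjusted p under 0.05. Fam162a, which encodes a mitochondrial protein, led these with 2.14 ± 0.21 (adjusted p = 1.42e-05), followed by the peptide transporter gene Slc15a2 with 1.15 ± 0.29 (adjusted p = 0.0119). Hspbap1, the costimulatory ligand gene Cd86 and the nuclear import gene Kpna1 lay at 0.71, 0.67 and 0.56. By edgeR 0 of the 14 were lower, with 1 lower and 7 higher at an unadjusted p under 0.05, and DESeq2 called 2 higher and 0 lower. Of all tested genes 12.0% were higher and 9.42% lower in this comparison. At week 1 only Fam162a of the 14 passed with edgeR, at 0.79 ± 0.22 (adjusted p = 0.0417), and it did not pass with DESeq2.

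The promoters of the 6 copies resembled one another as well. RefSeq promoter sequences of GRCm38.p6 were at hand for all 6 but not for Cstb, and over the 250 bases before the start their identities ran from 64.1% (BC100530 and Gm5483) to 89.4% (Stfa2 and Stfa2l1). The longest run that all 6 shared in the last 100 bases was ACCTTTAAAACC, between 12 and 36 bases before the RefSeq start. For Stfa1, Stfa2 and BC100530 the RefSeq start lies inside the GENCODE gene, so part of the 250 bases, with the run, falls within that gene. The run was picked for being shared, so its presence in all 6 carries no test. Of 32851 mouse promoters of 250 bases, 11 (0.0335%) held it on either strand, these 6 among them. Gm5416 held it too, but 80 bases before its annotated start, whereas Csta1 and 2010005H15Rik did not. The last 100 bases before the start are shown for Stfa2l1 (chr16:36156711-36156810, plus strand), Gm5483 (chr16:36184112-36184211, plus strand) and Stfa3 (chr16:36455393-36455492, minus strand), for which they lie outside the GENCODE gene, and for Gm5416 (chr16:36210303-36210402, plus strand), whose counts overlapped between the groups. Capitals mark the shared run.
Stfa2l1: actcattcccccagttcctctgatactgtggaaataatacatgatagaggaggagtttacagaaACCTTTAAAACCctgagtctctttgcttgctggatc
Gm5483: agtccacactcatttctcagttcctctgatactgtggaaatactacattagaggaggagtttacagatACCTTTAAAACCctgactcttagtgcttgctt
Stfa3: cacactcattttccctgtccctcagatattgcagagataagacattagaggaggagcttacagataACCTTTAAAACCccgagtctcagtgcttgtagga
Gm5416: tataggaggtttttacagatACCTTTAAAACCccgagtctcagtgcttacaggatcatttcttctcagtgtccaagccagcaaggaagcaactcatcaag

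Letter patterns of factors with known parts in neutrophils were also searched on both strands of the same 250 bases. The C/EBP pattern TTNNGNAA occurred in 5 of the 6 promoters, all but Stfa3, and in 36.8% of all promoters. The STAT pattern TTCNNNGAA occurred in Gm5483 alone of the 6 and in 7.02% of all, and the hypoxia pattern ACGTG in BC100530 and Gm5483 and in 16.6% of all. The PU.1 pattern GAGGAAGT and the AP-1 pattern TGANTCA, found in 2.44% and 6.75% of all promoters, matched none of the 6. These are matches of letters only, and binding was not measured.

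Cysteine cathepsins, the proteases that stefins and other cystatins bind, were partly higher at week 3, and legumain was listed with them. Of 11 genes listed, 10 were tested. Of these, 5 were higher and 0 lower at week 3 than in naive mice with edgeR and with DESeq2 (6 and 1 at an unadjusted p under 0.05). Over all tested genes 12.0% were higher and 9.42% lower with edgeR. The median log2 difference of the 10 was 0.59, beside 0.03 over all tested genes. Cathepsin L (Ctsl), an endopeptidase, was counted at 19.2 and 21.2 CPM in naive mice, 27.5 and 24.1 CPM at week 1, and 59.8 and 58.1 CPM at week 3. Its groups did not overlap, and the week 3 difference from naive was 1.54 ± 0.13 (adjusted p = 5.72e-06). Cathepsin C (Ctsc), which activates the serine proteases of neutrophil granules, lay at 25.3 and 31.7 CPM in naive mice, 31.5 and 34.5 CPM at week 1, and 83 and 61.4 CPM at week 3. Only its week 3 libraries stood apart, by 1.34 ± 0.16 from naive (adjusted p = 9.99e-05).

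Legumain (Lgmn), an asparaginyl protease that some cystatins also inhibit, was higher by 1.24 ± 0.24 (adjusted p = 0.00219). Cathepsin S (Ctss), known from antigen processing, was higher by 0.66 ± 0.13 (adjusted p = 0.0024), and the abundant cathepsin B (Ctsb) by 0.51 ± 0.13 (adjusted p = 0.016). The call for Ctsb was lost when libraries were scaled by their totals, at 0.36, and without replicate 1 of naive or of week 3, at 0.41 and 0.34. Among those that did not pass, Ctsz differed by -0.02 ± 0.16 and Ctsk by 2.20 ± 0.83, the last with week 3 libraries as far apart as 2.09 and 10.6 CPM. At week 1, 0 of the 10 passed with edgeR or DESeq2 and 2 were higher at an unadjusted p under 0.05, Ctsb coming nearest at 0.44 ± 0.13 (adjusted p = 0.0612), where 4.23% of all genes were higher and 3.76% lower. Against week 1, week 3 was higher in 4 (Ctsc, Ctsl, Ctss and Lgmn) and lower in 1, where 12.9% of all genes were higher and 9.57% lower. The lower one was the aminopeptidase gene Ctsh, at -0.39 ± 0.12 (adjusted p = 0.0292). The Ctsh call was lost when any 1 library of these groups was left out, with values from -0.47 (without replicate 1 of week 1) to -0.37 (without replicate 2 of week 1).

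**Figure D5:**
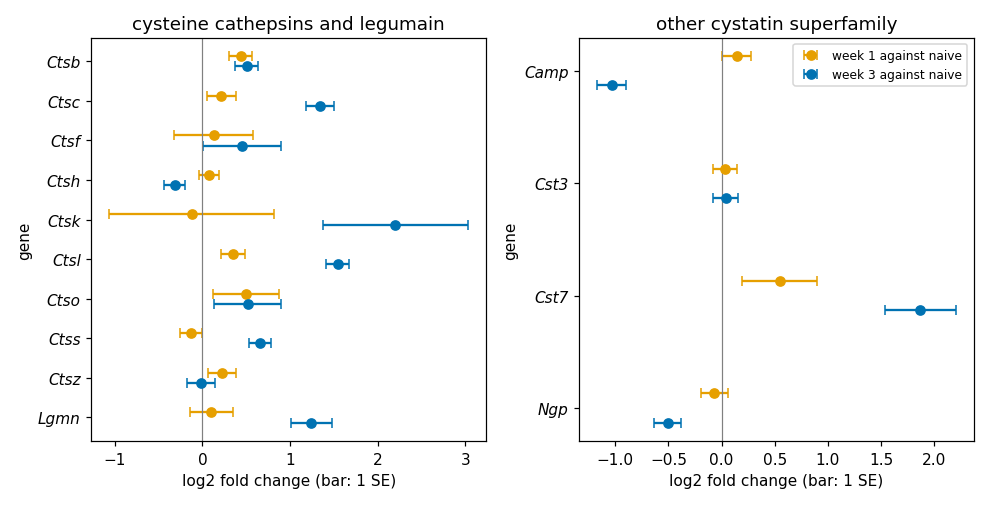
Log2 fold change against naive at week 1 and week 3, with bars of 1 SE, for the tested cysteine cathepsins and legumain and for the tested genes of the rest of the cystatin superfamily. Ctsl, Ctsc and Lgmn lie between 1.24 and 1.54 at week 3, and Camp at -1.04.

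Elsewhere in the cystatin superfamily the direction varied. Of 17 genes listed, 16 were in the counts and only 4 were tested, since 11 had at most 3 counts in every library. At week 3 against naive 1 of the 4 was higher and 2 were lower, where 12.0% of all tested genes were higher and 9.42% lower. Cystatin C (Cst3), the secreted inhibitor found in most tissues, stood between 282 and 322 CPM in all 6 libraries, with a week 3 difference of 0.04 ± 0.12 from naive (adjusted p = 0.862). Cystatin F (Cst7), an inhibitor of leukocytes that reaches the lysosome and acts on cathepsin C, was counted at 2.45 and 1.72 CPM in naive mice, 2.27 and 3.88 CPM at week 1, and 6.98 and 8.31 CPM at week 3. Its week 3 libraries were above the rest, by 1.87 ± 0.33 from naive (adjusted p = 0.0015). The other tested genes, Camp and Ngp, encode granule proteins with a cystatin-like fold, and both were lower at week 3, Camp by -1.04 ± 0.14 (adjusted p = 0.000172) and Ngp by -0.51 ± 0.13 (adjusted p = 0.0115). The call for Ngp was lost without replicate 2 of naive, at -0.41, or replicate 1 of week 3, at -0.36. At week 1, 0 of the 4 passed with edgeR, with DESeq2 or at an unadjusted p under 0.05. Against week 1, week 3 showed the same 3 calls, at 1.32 ± 0.32 for Cst7, -1.18 ± 0.14 for Camp and -0.44 ± 0.13 for Ngp. Those of Ngp and Cst7 were lost without replicate 1 of week 1, at -0.53 and 0.95, that of Cst7 also without replicate 2 of week 3, at 1.2, and that of Ngp also without replicate 2 of week 1, at -0.41, or replicate 1 of week 3, at -0.29.

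Inhibitors of other protease classes made up a list of 21 genes, of which 13 were tested. At week 3 against naive 4 were higher and 2 lower, with a median log2 difference of 0.11, where 12.0% of all tested genes were higher and 9.42% lower. Wfdc17, of the whey acidic protein family, rose from 34.3 and 86 CPM in naive mice and 29.4 and 51.7 CPM at week 1 to 2062 and 1748 CPM at week 3, a difference of 4.99 ± 0.36 (adjusted p = 1.4e-06). The naive libraries were far apart, and the difference was 4.44 without replicate 1 of naive and 5.80 without replicate 2. Spint1, which encodes a membrane-bound Kunitz inhibitor, had 0 counts in all naive and week 1 libraries and stood at 11.4 and 7.69 CPM at week 3, at least 38-fold higher than naive when set against a floor of 3 counts per library. Spint1 passed the filter on low counts only through week 3, so its calls against naive and against week 1 are a description.

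Wfdc21 was higher by 0.62 ± 0.13 (adjusted p = 0.00467) and Serpinb1a, whose product inhibits neutrophil elastase, by 0.53 ± 0.12 (adjusted p = 0.00578). Both calls were lost without replicate 1 of naive, at 0.49 and 0.40. Serpinb10 was lower, at -1.89 ± 0.31 (adjusted p = 0.000741), as was Timp3, at -1.41 ± 0.42 (adjusted p = 0.0291), a call lost with DESeq2, at -1.44, and without replicate 1 of naive, replicate 1 of week 3 or replicate 2 of week 3, at -0.96, -1.56 and -1.27. Slpi, a secreted inhibitor of elastase, differed by 0.11 ± 0.15 (adjusted p = 0.667).

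At week 1, 3 of the 13 passed, 1 higher and 2 lower, where 4.23% of all tested genes were higher and 3.76% lower. Spint2 was higher by 1.45 ± 0.28 (adjusted p = 0.00822), and Timp2 and the calpain inhibitor gene Cast were lower, at -0.41 ± 0.11 (adjusted p = 0.0387) and -0.44 ± 0.12 (adjusted p = 0.0368). Cast stood at 43 CPM in both week 1 libraries, against 57.8 and 58.7 CPM in naive mice and 62 and 61.4 CPM at week 3. The Spint2 call was lost without replicate 1 of naive or of week 1, at 1.38 and 1.30. The Timp2 call was lost without replicate 1 of naive or either library of week 1, at -0.33, -0.42 and -0.39, and with library totals, at -0.35. The Cast call was lost without any 1 of the 4 libraries, at -0.45 to -0.43, and with library totals, at -0.38. Against week 1, week 3 was higher in 4 (Wfdc17, Spint1, Serpinb1a and Cast) and lower in 3 (Serpinb10, Spint2 and Pebp1). Over all tested genes 12.9% were higher and 9.57% lower. Without replicate 1 of week 1 the calls of Cast and Spint2 were lost, at 0.50 and -0.93, and without replicate 2 of week 1 those of Cast and Pebp1, at 0.49 and -0.57. Without replicate 1 of week 3 those of Spint2 and Pebp1 were lost, at -0.88 and -0.48, and with library totals that of Cast, at 0.32.

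Marker genes of cell types and stages were counted beside the stefins. Of all tested genes, 12.0% were higher and 9.42% lower at week 3 than in naive mice. Of 10 mature neutrophil genes, 4 were higher at week 3 than in naive mice with edgeR, and 4 higher and 1 lower with DESeq2, with a summed level of 17853 to 19466 CPM in naive, 18681 to 20709 CPM in week 1 and 22294 to 22675 CPM in week 3 libraries. Most of that sum came from Mmp9 and Retnlg. Of 8 myelocyte and metamyelocyte genes, 4 were lower, with summed levels of 46056 to 52994 CPM in naive and 31272 to 35050 CPM in week 3 libraries. Most of this second sum came from Camp and Ngp, already given above as lower. Lcn2, Mmp8, Cd177 and Olfm4 of the same list were not called, at 0.05, 0.07, 0.49 and -0.52. Of 6 promyelocyte genes, 5 were higher and 1 lower, from 140.5 to 144 CPM in naive, 159 to 205 CPM in week 1 and 301 to 401 CPM in week 3 libraries. The part of maturation stage in the stefin levels was not tested.

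Genes of other cells differed in direction between lists, where 12.0% of all tested genes were higher and 9.42% lower at week 3 than in naive mice. All 7 B cell genes were lower at week 3 (6 with DESeq2), from 47 to 80.3 CPM in sum in naive to 9.23 to 18.2 CPM in week 3 libraries, and 1 of 2 tested T and NK cell genes was lower. Of 7 erythroid genes, 0 were called by edgeR or DESeq2 and 1 was lower at an unadjusted p under 0.05. Their sums were 1183 to 1319 CPM in naive mice and 567 to 1326 CPM at week 3. Of 8 monocyte and macrophage genes 1 was higher and 1 lower, near the shares over all tested genes. At week 1, 3 of the 4 tested eosinophil, basophil and mast cell genes were higher than in naive mice with edgeR (2 with DESeq2), where 4.23% of all tested genes were. These were Cpa3 by 1.59 ± 0.36 (adjusted p = 0.0171), Mcpt8 by 1.5 ± 0.32 (adjusted p = 0.0135) and Prg2 by 0.62 ± 0.17 (adjusted p = 0.0369). The summed level of that list was 22.3 to 26.1 CPM in naive, 41.3 to 45.4 CPM in week 1 and 17.7 to 23.2 CPM in week 3 libraries, and Ms4a2 had at most 3 counts in every library. At week 3, 2 of the 4 were lower (1 with DESeq2), and of 5 megakaryocyte and platelet genes 3 were lower. In the epidermis stefin A genes are made by keratinocytes, whose keratin genes Krt5 and Krt14 were at 0 counts in all 6 libraries. Krt8 had 0 counts in both naive libraries, 8 and 13 at week 1 and 3 and 3 at week 3. Krt18 had 0 and 2, 8 and 5, and 2 and 2 counts in the same groups, and Epcam had 1 and 8, 3 and 0, and 0 and 1. Of the 6 epithelial genes listed only Cdh1 was tested, and it was higher at week 3, at 17 and 5.84 CPM against 3.4 and 3.52 CPM in naive mice, by edgeR but not by DESeq2. The part of these cells in the stefin levels was not tested.

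Across the 6 libraries, the summed stefin A level was most alike in pattern to Mgam, Selenof, Usp22, Rflnb and Fam214b, with Pearson's r of log2 CPM from 0.9957 to 0.9994 among tested genes of at least 10 CPM on average. These changed far less in size. Mgam, which encodes a maltase-glucoamylase, went from 39.3 and 38.5 CPM in naive mice and 45.3 and 40.9 CPM at week 1 to 87.4 and 79.4 CPM at week 3. For Cstb, the genes most alike were Arnt, Fibp, Ptges3, Anxa7 and Flot1, with r from 0.9811 to 0.9984. Arnt, which encodes a partner of hypoxia-inducible factors, shared with Cstb its higher second naive library, at 37.8 and 52.5 CPM, its level week 1 libraries at 43.1 and 44.8 CPM, and its higher first week 3 library, at 79.1 and 58.6 CPM. Such values over 6 points picked from so many genes describe the order of the libraries and carry no test.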

How the data were processed

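The authors deposited a table of expected counts per gene, estimated with RSEM (version 1.2.31 per the labels; the methods name another version) and Bowtie2 against mm10 and an Ensembl transcriptome, as whole numbers without scaling between libraries. RSEM divides reads that fit several genes by estimation. All 6 columns were matched to samples by name. Symbols, positions and transcripts came from GENCODE annotation of GRCm38. Genes with low counts were removed by filterByExpr, counts were scaled by TMM, and all 6 libraries were fitted with edgeR 4.0.16 in R 4.3.3 by the quasi-likelihood test, with Benjamini-Hochberg adjustment over 12259 genes and a threshold of 0.05. Depth was 11994158 to 14127919 counts per library, and the limits it sets cover counting error only. The members and the gene lists were chosen with earlier results of these data known. Named were all members, the locus and genes within 500 kb, list genes that passed with up to 3 others per list, and 5 genes most alike in pattern. Coding sequences were aligned with Biopython 1.88. Alternatives were DESeq2 1.42.0, other scalings and filters, the compared groups alone, a replicate block, each library left out, and near-identical copies summed, added after seeing the data. The script was tested on simulated data.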

Additional observations from a re-analysis of the deposited data

How the results depend on the processing

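Over all genes, 979 differed at week 1 from naive, 2626 at week 3 from naive and 2759 between week 3 and week 1. Without a filter on low counts the first was 1537. Leaving out single libraries gave 147 to 1145, 1362 to 2392 and 1502 to 2725, the lowest values without replicate 1 of naive for the first pair and without replicate 2 of week 1 for the last. The summed stefin A difference then ran from 0.15 to 0.63 at week 1 against naive (lowest without replicate 1 of week 1), from 2.79 to 3.30 at week 3 against naive and from 2.39 to 2.90 at week 3 against week 1. Under the other alternatives it ran from 0.39 to 0.47, 2.91 to 3.06 and 2.44 to 2.65. Scaling by library totals alone shifted the median of all genes at week 3 against naive from 0.03 to -0.11, lowered the stefin A genes along with it, and turned the share of higher calls from 56% to 34.7%. Against week 1 the shift was from -0.02 to -0.22 and the share went from 57.5% to 28.6%, and at week 1 against naive the share went from 52.9% to 68.6%. Over all tested genes, deviations of same-numbered libraries from their group means were hardly correlated (r of 0.01 to 0.038). In every stefin A gene described, however, replicate 1 stood above replicate 2 in each group. With 2 libraries per group, whether same-numbered libraries belong together cannot be told. With a replicate block 959, 2559 and 2709 genes were called, the summed differences were 0.39, 3.04 and 2.65, and the week 1 calls of Timp2 and Cast were lost. Summing near-identical copies moved Stfa2 at week 3 against naive from 5.37 to 3.57, BC100530 from 4.72 to 3.69, Stfa1 from 2.72 to 3.69 and Stfa2l1 from 2.59 to 3.57, by construction of the sums. Of 821 values under an alternative, which were those of single genes and the counts of calls in the gene lists, 40 lost their call and 30 moved. A gene moved if it shifted by more than the spread between replicates, and a count of calls if it changed by more than a set ratio. The sign of a single gene was opposite in 8, all of them week 1 differences from naive of Stfa1, Stfa2 and Cstb, which were at most 0.115 in size: Stfa1 reached -0.15, Cstb 0.14 and Stfa2 0.18 without single libraries, and Stfa2 0.58 with its copy. The cause of these changes was not tested. Each of the 7 genes had at least 83 counts in every library, and the part of depth in their uncertainty was not tested.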
